A study of Mus musculus with 60 samples.

Results

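The 10 genes described here are the core cyclins Ccna2, Ccnb1, Ccnb2, Ccnd1, Ccnd2, Ccnd3, Ccne1 and Ccne2 and the cyclin-dependent kinase genes Cdk1 and Cdk2. They were taken by symbol from the table of 27238 genes, and each of the 10 had 1 row. Their levels are given as RPKM, that is reads scaled to the exon length of a gene and to library size, so that levels of different genes are compared per length. Embryos of 3 types were sequenced singly at 6 stages, at 1, 2, 4 and 8 cells and as morulae and blastulas, in 3 libraries per group, together with 3 libraries of each donor cell, which gives 60 libraries in 20 groups. All were of the BDF1 hybrid background.

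In vivo embryos came from superovulated C57BL/6 females mated with DBA/2 males and were collected from the mice at each stage. NTC embryos were made by transfer of the nucleus of a cumulus cell (CC) into an enucleated BDF1 oocyte, and NTM embryos by transfer of the nucleus of a mouse embryonic fibroblast (MEF). The MEFs came from BDF1 fetuses and were used at passages 2 to 5, and donor MEFs were serum-starved, which holds cells before DNA replication. Whether the sequenced MEFs were starved, and how many donor cells entered a library, is not given in the sources used here. Reconstructed oocytes were activated in strontium chloride with cytochalasin B and Scriptaid, a histone deacetylase inhibitor, and NT embryos then grew in culture. In vivo embryos thus arose from oocytes of C57BL/6 females and NT embryos from BDF1 oocytes. Oocyte strain, activation, culture and nuclear transfer cannot be told apart in any comparison of NT with in vivo embryos.

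Cyclins are regulatory subunits that switch on cyclin-dependent kinases at set points of the cell cycle. D-type cyclins act in G1 and couple division to growth signals, E-type cyclins with Cdk2 start DNA replication, cyclin A2 acts in S phase and G2, and B-type cyclins with Cdk1 drive entry into mitosis. The oocyte stores cyclin B1 mRNA for the completion of meiosis, and the first divisions of the mouse embryo use stored RNA and protein until the embryonic genome, which becomes active mainly at the 2-cell stage, takes over.

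Reads on genes numbered 5294167 to 26281508 in the embryo libraries and 31558140 to 47830132 in the donor libraries, and 3 reads of a member, the limit that a value of 0 allows for counting error alone, corresponded to 0.00667 RPKM (Ccnd2, deepest library) to 0.368 RPKM (Ccnb2, shallowest library). The in vivo 4-cell libraries, on which many of the differences below rest, stood apart in other measures as well. Mitochondrial transcripts took 5.68% to 8.87% of their reads, against 31.6% to 34.7% in NTC and 29.6% to 40.4% in NTM 4-cell libraries, and 13576 to 13932 genes were above 0, against 10824 to 11929 and 8997 to 10930. The summed level of 8 oocyte markers was 8350 to 12472 RPKM in in vivo 4-cell embryos, 83.0 to 155 RPKM in NTC and 104 to 397 RPKM in NTM 4-cell embryos. Dppa3 alone made up 8284 to 12402 RPKM of the in vivo sum, and the other 7 markers summed to 65.9 to 91.0 RPKM there, against 65.2 to 108 RPKM in NTC and 66.4 to 346 RPKM in NTM. The part of these differences in the results below was not tested, except that RPKM was recomputed over reads outside the mitochondrial genome. In whole embryos, fewer cells with a transcript and less of it per cell cannot be told apart. The 10 fibroblast markers summed to 9120 to 12261 RPKM in MEFs and to at most 22.3 RPKM in any embryo. Of the cumulus markers, Cyp11a1, Inha and Star were high in CCs and at most 5.46 RPKM in MEFs, while Ptx3, Ptgs2 and Tnfaip6 were also high in MEFs and Has2 was at 0 in CCs.

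Promoters are shown for 4 members that differ in their course over the 4-cell stage: Cdk1, Ccnb2 and Cdk2 peaked there in in vivo embryos, and Ccnb1 was already high from the 1-cell stage on. Each runs 5′ to 3′ on the strand of the gene, from 250 bases before to 30 bases after the start that RefSeq annotates in GRCm38.p6. Capitals mark the CCAAT box, the TTTGAA element known from promoters of mitotic genes, and TTTNNCGC, a form of the E2F site. Both strands were searched, and a match on the other strand stands in capitals as its reverse complement. No 2 matches overlap.
Cdk1, chr10:69352883-69353162, minus strand: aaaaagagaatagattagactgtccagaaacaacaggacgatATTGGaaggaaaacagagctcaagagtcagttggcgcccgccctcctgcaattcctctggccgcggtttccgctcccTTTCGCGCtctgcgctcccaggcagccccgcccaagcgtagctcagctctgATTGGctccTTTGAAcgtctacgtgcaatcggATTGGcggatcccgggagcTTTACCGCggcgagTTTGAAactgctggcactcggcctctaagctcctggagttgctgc
Ccnb2, chr9:70421525-70421804, minus strand: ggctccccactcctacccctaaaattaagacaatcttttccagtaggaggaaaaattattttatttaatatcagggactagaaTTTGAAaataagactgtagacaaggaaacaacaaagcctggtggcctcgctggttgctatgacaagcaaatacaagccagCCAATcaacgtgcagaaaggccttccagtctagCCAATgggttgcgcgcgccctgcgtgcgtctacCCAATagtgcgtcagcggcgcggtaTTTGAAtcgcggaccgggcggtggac
Cdk2, chr10:128705022-128705301, minus strand: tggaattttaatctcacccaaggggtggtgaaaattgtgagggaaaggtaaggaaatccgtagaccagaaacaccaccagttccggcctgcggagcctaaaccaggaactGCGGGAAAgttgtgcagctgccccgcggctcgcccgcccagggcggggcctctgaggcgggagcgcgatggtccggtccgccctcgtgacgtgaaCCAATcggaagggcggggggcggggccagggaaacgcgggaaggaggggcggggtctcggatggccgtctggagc
Ccnb1, chr13:100786457-100786736, minus strand: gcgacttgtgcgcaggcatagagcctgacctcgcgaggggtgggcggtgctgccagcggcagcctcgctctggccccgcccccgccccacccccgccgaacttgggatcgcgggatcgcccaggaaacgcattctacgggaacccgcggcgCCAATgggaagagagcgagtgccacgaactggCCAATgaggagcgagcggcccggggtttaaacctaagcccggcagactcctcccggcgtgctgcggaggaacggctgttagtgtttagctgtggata
The Cdk1 window held 2 matches to TTTGAA, 3 to CCAAT and 2 to TTTNNCGC, and the Ccnb2 window held 2 to TTTGAA and 3 to CCAAT. The Cdk2 window held 1 match to CCAAT and 1 to TTTNNCGC, and the Ccnb1 window 2 CCAAT matches. Of the 32851 RefSeq promoters of this length, 17.2% held TTTGAA, 36.1% CCAAT and 4.84% TTTNNCGC. These are matches of letters and not sites of binding. Of the other members, Ccne1 had no match, and Ccnd3 had 1 CCAAT match in the second of its 2 annotated promoters.

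Cdk1 encodes the kinase of mitotic entry and lies on chromosome 10 (69335146 to 69352938, minus strand, GRCm38). In in vivo embryos its level was 0.0556, 2.23 and 2.14 RPKM at the 1-cell stage and 0.405, 1.15 and 2.16 RPKM at the 2-cell stage. At the 4-cell stage it was 156, 156 and 189 RPKM, which corresponds to 7071, 8003 and 10609 reads. At the 8-cell stage it had returned to 8.80, 7.80 and 3.05 RPKM. The in vivo 4-cell mean of 167 ± 18.9 RPKM (SD, n = 3) was the highest of the 20 groups, and no library of any other group reached its range. The next group in order, the NTC morula, had a mean of 11.4 ± 0.841 RPKM (SD, n = 3).

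No such peak was seen in NT embryos. NTC 4-cell embryos had 8.30, 3.60 and 3.57 RPKM of Cdk1 (273, 147 and 126 reads) and NTM 4-cell embryos 8.76, 2.52 and 7.42 RPKM (525, 85 and 471 reads). Every NT library was therefore below every in vivo library at this stage. At the other 5 stages all embryos of the 3 types lay between 0.0556 and 12.9 RPKM.

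Ccnb2, on chromosome 9 (70407692 to 70421547, minus strand), encodes a B-type cyclin that binds Cdk1 and followed a similar course at a lower level. Its in vivo values were 3.97, 3.41 and 4.71 RPKM at the 2-cell stage, 60.1, 145 and 95 RPKM at the 4-cell stage and 2.68, 2.79 and 0.895 RPKM at the 8-cell stage. NTC 4-cell embryos had 1.02, 1.21 and 1.71 RPKM, which is 15 to 27 reads per library, and NTM 4-cell embryos 3.69, 0.531 and 1.02 RPKM, which is 8 to 99 reads. These few reads make the NT levels imprecise, but the in vivo libraries held 1218 to 3325 reads each. The processed copy Ccnb2-ps was itself at most 3.10 RPKM in any library. The NT 4-cell values of Ccnb2 are of the same order as this limit, and their uncertainty is the greater for it.

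Ccna2, on chromosome 3 (36564865 to 36572150, minus strand), encodes the A-type cyclin of S phase and G2. It was present from the start, with 16.4, 22.3 and 17.8 RPKM in in vivo 1-cell embryos and 12.8, 16.6 and 23.7 RPKM in 2-cell embryos, and reached 153, 166 and 245 RPKM at the 4-cell stage. In vivo 8-cell embryos had 7.43, 9.89 and 5.53 RPKM, below their own 1-cell level. NTC 4-cell embryos had 36.4, 26.1 and 46.7 RPKM and NTM 4-cell embryos 11.7, 12.2 and 57.5 RPKM. The highest NT value at this stage thus stood well below the lowest in vivo value. By the blastula stage the level was 0.0780 to 4.66 RPKM in vivo, 3.19 to 9.06 RPKM in NTC and 3.97 to 8.98 RPKM in NTM embryos, so that the ranges met.

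Cdk2, on chromosome 10 (128697939 to 128705031, minus strand), encodes the partner kinase of cyclins E and A. In vivo 2-cell embryos had 3.73, 3.94 and 4.28 RPKM, 4-cell embryos 38.7, 95.6 and 79.2 RPKM and 8-cell embryos 6.35, 3.67 and 7.87 RPKM. In vivo blastulas had 19.9, 16.5 and 32.5 RPKM, all above the morulae (4.79, 3.09 and 8.36 RPKM), but this step did not pass the test. NTC embryos were at 28.3, 20.3 and 3.01 RPKM at the 4-cell stage and NTM embryos at 12.8, 8.33 and 67.4 RPKM. NTM replicate 3 lay inside the in vivo range, and this library was also the highest of the 3 NTM 4-cell libraries for Ccna2, Ccnb1 and Ccnd3, but not for Cdk1 or Ccnb2.

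Ccnb1, on chromosome 13 (100778650 to 100786570, minus strand), encodes the main mitotic cyclin. At the 1-cell and 2-cell stages it made up 66.3% to 93.2% of the summed RPKM of the 8 cyclins in every embryo type, and in in vivo morulae 30% to 39.8%, where Ccne1 was higher in all 3 libraries. In vivo embryos had 495, 673 and 597 RPKM at the 1-cell stage, 699, 954 and 588 RPKM at the 2-cell stage and 844, 684 and 692 RPKM at the 4-cell stage. The level was 603, 387 and 278 RPKM at the 8-cell stage and 36.1, 88.3 and 134 RPKM in morulae. In vivo Ccnb1 thus kept its level up to the 4-cell stage, with groups that overlapped from one stage to the next. NTC embryos had 516, 554 and 547 RPKM at the 1-cell stage but 182, 144 and 175 RPKM at the 4-cell stage. NTM embryos began higher, at 982, 924 and 891 RPKM, and had 345, 452 and 259 RPKM at the 2-cell stage and 203, 170 and 356 RPKM at the 4-cell stage. All 6 NT 4-cell libraries were below the 3 in vivo ones. The processed copy Ccnb1-ps was at most 0.407 RPKM in any library.

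**Figure D1:**
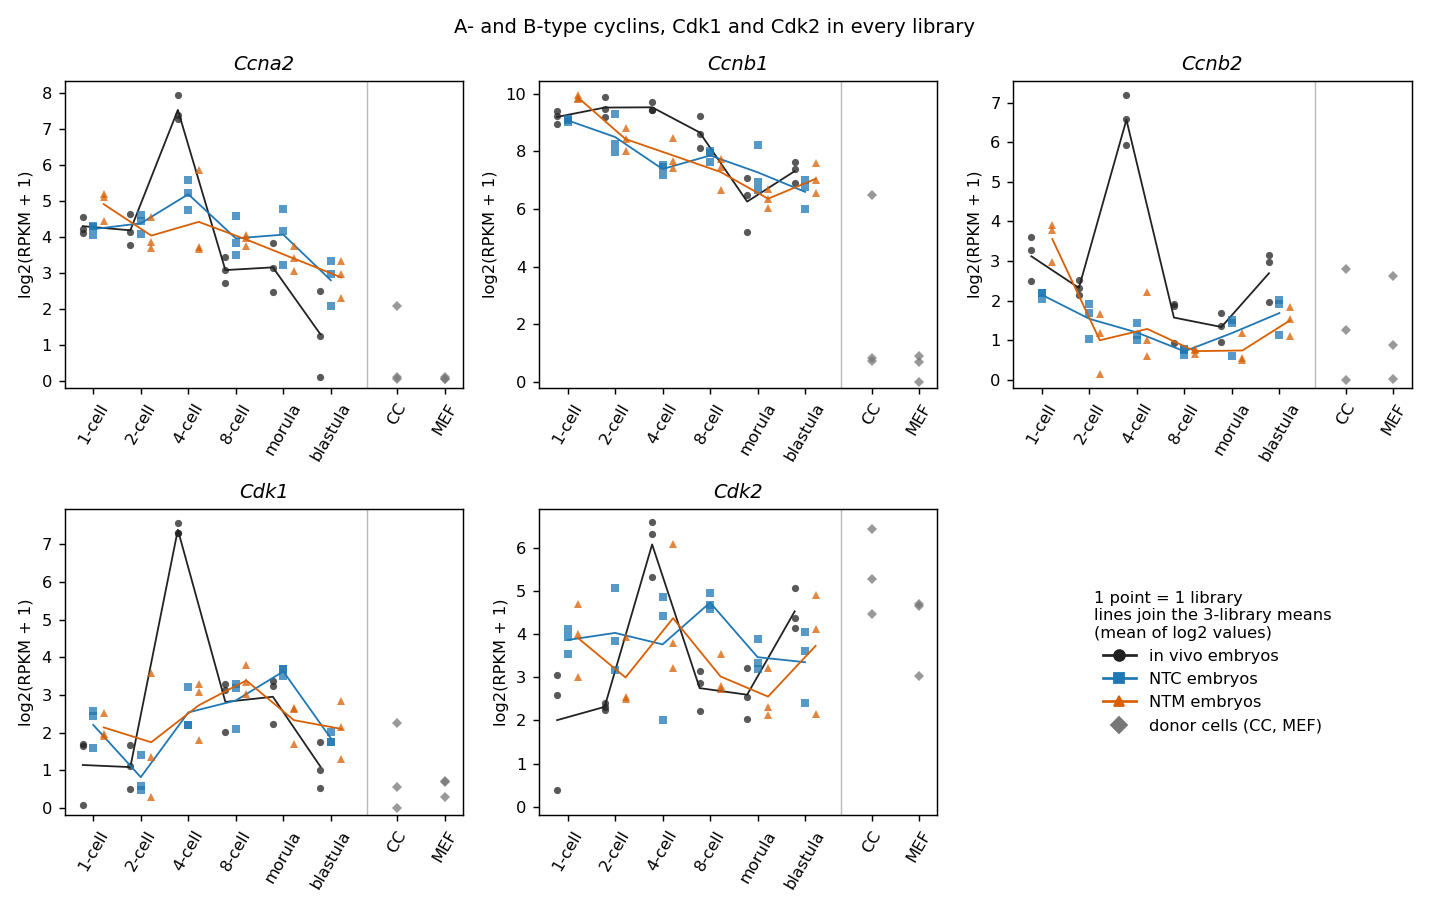
Levels as log2(RPKM + 1) of the members of S phase and mitosis in the 3 embryo types at the 6 stages and in the donor cells (diamonds), with 1 point per library and lines through the means of the log2 values. The in vivo 4-cell points of Cdk1 (156 to 189 RPKM), Ccnb2 (60.1 to 145 RPKM) and Ccna2 (153 to 245 RPKM) stand above every NT point at that stage.

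The levels above also set the make-up of the B-type cyclins and of the kinase pair at the 4-cell stage. These shares are not a separate difference and were not tested. Ccnb1 made up 82.5% to 93.4% of the summed RPKM of Ccnb1 and Ccnb2 in in vivo 4-cell embryos, and 99.0% to 99.4% in NTC and 98.2% to 99.7% in NTM embryos of that stage. Cdk1 made up 62.0% to 80.1% of the sum of Cdk1 and Cdk2 in in vivo 4-cell embryos, against 9.80% to 33.5% in vivo at the 2-cell stage. The share was 15.1% to 54.3% in NTC and 9.91% to 40.6% in NTM 4-cell embryos, below the in vivo range in both. In vivo blastulas had the lowest Cdk1 share of the in vivo stages, 1.38% to 12.6%.

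The steps between stages were tested within each embryo type with limma on log2(RPKM + 1), among genes with a mean of at least 0.5 RPKM in the libraries compared. A gene counts as called when its Benjamini-Hochberg adjusted p over all genes tested is under 0.05 and its log2 fold change is at least 1 in size. On this scale the change of genes near 0 is understated. Nothing in the labels says that the 3 embryos of a group came from separate litters or days, so p-values measure the spread between these 3 embryos.

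From the 2-cell to the 4-cell stage in vivo, 9 members could be tested (all but Ccnd2), and 5 rose and 1 fell. Over all 12995 genes 52.2% were called, 31.4% upwards and 20.8% downwards, so that a call in this step is common. Cdk1 rose by 6.30 log2 units (SE 0.41, limma adjusted p = 4.20e-05), Ccnb2 by 4.25 (SE 0.42, adjusted p = 0.000188) and Cdk2 by 3.76 (SE 0.43, adjusted p = 0.000341). Ccna2 rose by 3.35 (SE 0.38, adjusted p = 0.000318), while Ccnb1 differed by 0.01 log2 units. Ccne1 rose and Ccne2 fell, and Ccnd3 (0.89) and Ccnd1 (0.43) were not called. The median over the 9 members was 3.35, beside 0.36 over all genes. The calls of these 4 held without any 1 library and in every alternative run.

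From the 4-cell to the 8-cell stage in vivo the same 4 genes fell, of 8 members tested. Ccnb2 changed by -5.00 log2 units, Cdk1 by -4.57, Ccna2 by -4.46 and Cdk2 by -3.33. This step was asymmetric as a whole, with 43.7% of 10417 genes called, 4.4% upwards and 39.3% downwards, and a median of -1.05 over all genes. With median-ratio scaling the median of all genes was -0.16 and the split became 1318 rises against 1757 falls, in place of 458 against 4096, and the 4 falls were then -3.79, -3.23, -3.09 and -1.99, all still called. Ccnb1 changed by -0.87 log2 units with an adjusted p of 0.0342 by limma, under the fold limit. Mitochondrial transcripts rose over the same step, from 5.68% to 8.87% of reads to 32.1% to 45.0%, and over reads outside the mitochondrial genome the 4 falls were -4.64, -4.08, -3.95 and -2.83.

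The same steps were tested within each NT type. Between the 1-cell and 2-cell stages 13.5% of genes were called in NTC embryos, 4.53% upwards, and the one member among them was Ccne1, which rose. In NTM embryos 9.4% were called, 6.68% downwards, and Ccnb1 fell by 1.44 log2 units (SE 0.25, limma adjusted p = 0.0108) and Ccnb2 by 2.56 (SE 0.62, adjusted p = 0.0373). The NTM calls rest on few libraries. Ccnb1 lost its call without any one of the 3 NTM 1-cell libraries (adjusted p up to 0.0798), and Ccnb2 without any of these or without 2-cell replicate 2 (adjusted p up to 0.189). Without the expression limit both were lost as well, and Ccnb1 in 1 fit over all 20 groups (limma adjusted p up to 0.179). The Ccnb2 call was also lost at a pseudocount of 0.1, with median-ratio scaling and with the replicate number as a block. In vivo, none of 10854 genes passed over this step in limma (0.0%), and none of the 8 members tested had an unadjusted p under 0.05.

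Over the 2-cell to 4-cell step the test called 36.6% of 12324 genes in NTC embryos, 16.4% upwards and 20.1% downwards, and 26.4% of 11742 in NTM embryos, 12.1% upwards. Cdk1 rose by 1.72 log2 units in NTC embryos (SE 0.54, limma adjusted p = 0.0354), from 0.393, 0.486 and 1.64 RPKM, while Ccnb1 fell by 1.11 (SE 0.38, adjusted p = 0.0478). Both calls were lost without any one of 5 of the 6 libraries, Cdk1 keeping its call without 2-cell replicate 3 and Ccnb1 without 2-cell replicate 1, with adjusted p up to 0.121 and 0.119. They were also lost without the expression limit and with the replicate number as a block, and Ccnb1 in 1 fit over all 20 groups (limma adjusted p up to 0.212). Mitochondrial transcripts took 8.77% to 19% of reads in NTC 2-cell and 31.6% to 34.7% in NTC 4-cell libraries, and over reads outside the mitochondrial genome the Ccnb1 change was -0.74 (adjusted p = 0.12) and not called. In NTM embryos Ccne1 was the one member called. Between the 4-cell and 8-cell stages no member passed in either NT type by limma, with 0.0564% of all genes called in NTC and 0.363% in NTM embryos, and 2 and 1 members had an unadjusted p under 0.05. From the 8-cell embryo to the morula no member was called in any type, with 0.0116% of genes called in vivo and 0.0% in both NT types, and 1, 2 and 5 members had an unadjusted p under 0.05 (in vivo, NTC and NTM).

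**Figure D2:**
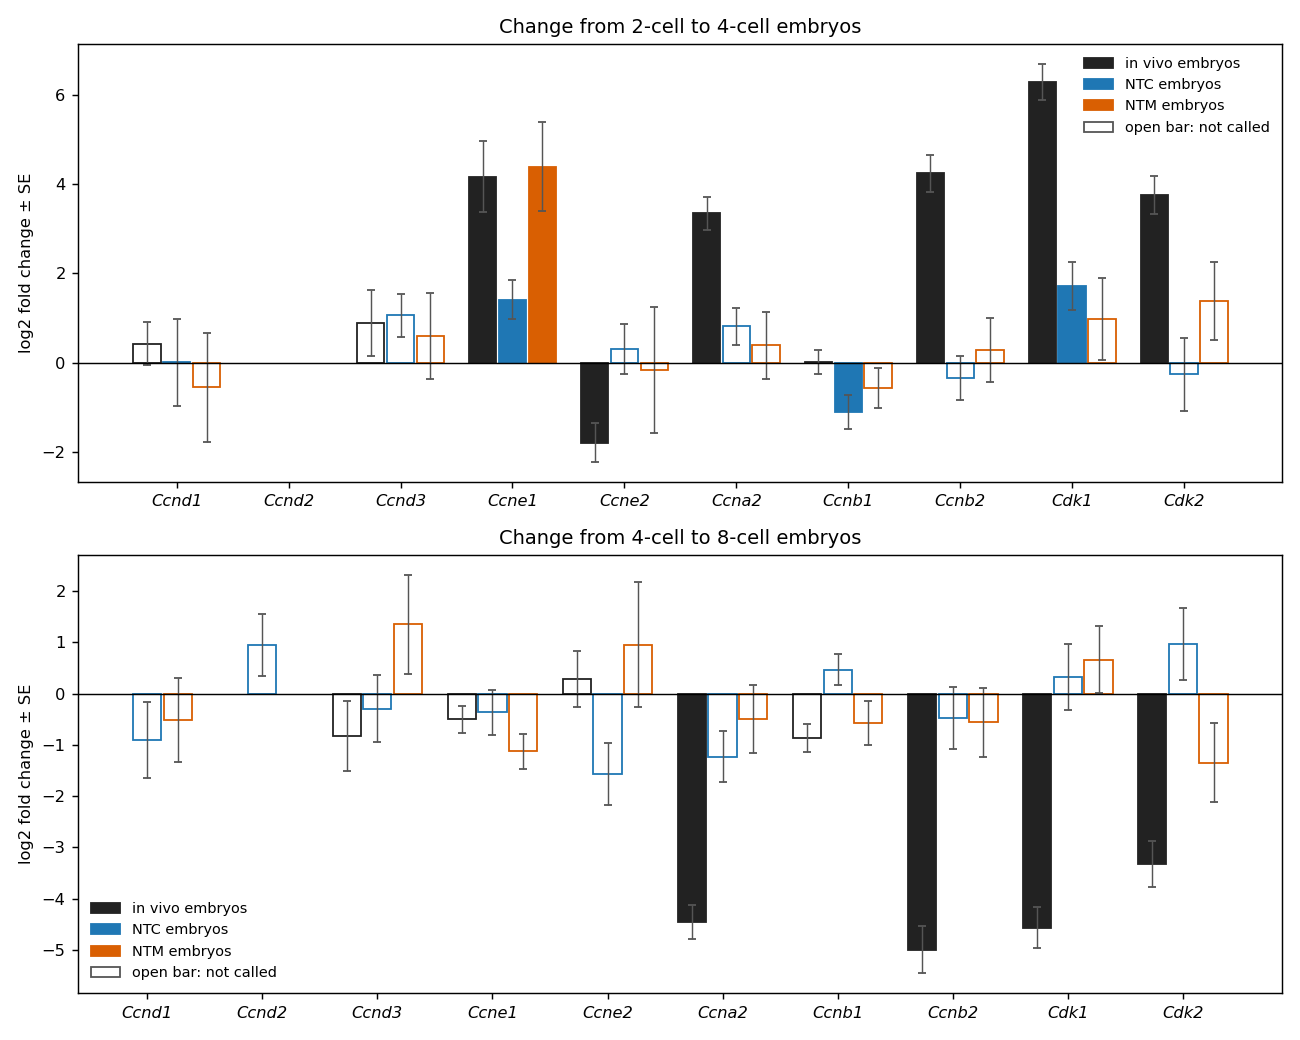
Log2 fold change of each member from the 2-cell to the 4-cell embryo (top) and from the 4-cell to the 8-cell embryo (bottom) in each embryo type, with SE as error bars and open bars for steps that did not pass the test. Bars are missing where a gene was under the expression limit, and the in vivo bars reach 6.30 (Cdk1, 2-cell to 4-cell) and -5.00 (Ccnb2, 4-cell to 8-cell).

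Whether these steps differed between embryo types was tested as an interaction. As NT minus in vivo, the 2-cell to 4-cell change of Cdk1 differed in NTC embryos by -4.58 log2 units (SE 0.65, limma adjusted p = 0.000633), that of Ccnb2 differed by -4.59 (SE 0.61, adjusted p = 0.000375), that of Cdk2 by -4.03 (SE 1.00, adjusted p = 0.0175) and that of Ccna2 by -2.54 (SE 0.54, adjusted p = 0.00757). Over all genes 14.3% passed this test, 12% downwards. In NTM embryos the differences were -5.32 for Cdk1 (SE 1.06, adjusted p = 0.00808), -3.96 for Ccnb2 (SE 0.83, adjusted p = 0.0102) and -2.97 for Ccna2 (SE 0.85, adjusted p = 0.0456), with 9.91% of genes called, 8.05% downwards.

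The following step mirrored this, and it shares the 4-cell libraries with the step before. From the 4-cell to the 8-cell stage the change in NTC embryos exceeded the in vivo change by 4.89 for Cdk1, 4.52 for Ccnb2, 4.30 for Cdk2, 3.23 for Ccna2 and 1.34 for Ccnb1, with 19.5% of genes called, 17.0% upwards. In NTM embryos the excess was 5.23 for Cdk1, 4.43 for Ccnb2 and 3.97 for Ccna2, with 18.7% called, 16.5% upwards. In the remaining 3 steps no member passed this test by limma, with 0.0256%, 0.0% and 0.236% of genes called for NTC and 0.204%, 0.0335% and 0.647% for NTM, and 0, 1 and 1 and 2, 2 and 1 members had an unadjusted p under 0.05 (1-cell to 2-cell, 8-cell to morula, morula to blastula). Some of the interaction calls did not hold in every alternative. The Ccna2 difference of NTM embryos from the 2-cell to the 4-cell stage was lost without any one of 11 of the 12 libraries (all but NTM 4-cell replicate 3, adjusted p up to 0.114), and over reads outside the mitochondrial genome (adjusted p = 0.0840). Those of Cdk1 and Ccnb2 in the same step were lost at a pseudocount of 0.1 (adjusted p = 0.0540 and 0.125). The Cdk2 difference of NTC embryos in this step was lost without in vivo 4-cell replicate 2 (adjusted p = 0.0523). The Ccnb1 difference of NTC embryos was lost without in vivo 4-cell replicate 1 or 2, in vivo 8-cell replicate 2 or 3, NTC 4-cell replicate 2 or NTC 8-cell replicate 1 (adjusted p up to 0.0678) and over reads outside the mitochondrial genome (0.87, adjusted p = 0.0933), and with median-ratio scaling it was 0.30 (adjusted p = 0.576).

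The levels at the 4-cell stage were then compared directly. In NTC embryos 5 members were lower and 1 higher than in vivo, of 9 tested, with 27.8% of 11457 genes called, 20.4% lower and 7.4% higher. Ccnb2 differed by -5.37 log2 units (SE 0.41, limma adjusted p = 4.30e-05), Cdk1 by -4.85 (SE 0.36, adjusted p = 3.84e-05), Ccna2 by -2.35 (SE 0.31, adjusted p = 0.000806) and Ccnb1 by -2.14 (SE 0.20, adjusted p = 0.000125). Cdk2 differed by -2.31 (SE 0.72, adjusted p = 0.0412), and this call was lost without any one of the in vivo libraries or NTC replicate 3 (adjusted p up to 0.159), with median-ratio scaling (adjusted p = 0.0924), with reads outside the mitochondrial genome (adjusted p = 0.0985) and without the expression limit. The median over the 9 members was -2.14, beside -0.39 over all genes.

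In NTM embryos 4 of 9 members were lower and none higher, with 21.1% of 11143 genes called, 17.8% lower. The differences were -5.28 for Ccnb2 (SE 0.59, limma adjusted p = 0.00119), -4.66 for Cdk1 (SE 0.49, adjusted p = 0.000944), -3.11 for Ccna2 (SE 0.62, adjusted p = 0.0118) and -1.67 for Ccnb1 (SE 0.32, adjusted p = 0.00962). Cdk2, at -1.71 (SE 0.77, adjusted p = 0.152), was not called. The Ccna2 call was lost without any one of the 3 in vivo libraries (adjusted p up to 0.0648), and the Ccnb1 call without in vivo replicate 1 or 2 (adjusted p up to 0.0550) and with median-ratio scaling (-0.89, adjusted p = 0.0622). The Ccnb1 call was also lost in 1 fit over all 20 groups (limma adjusted p = 0.0778). The calls of Cdk1 and Ccnb2 held throughout in both NT types. Over reads outside the mitochondrial genome, Cdk1 differed by -4.46 in NTC and -4.22 in NTM embryos and Ccnb2 by -5.12 and -5.00, all called. Both comparisons use the same 3 in vivo libraries, so they are not independent of each other. The total of 10 member calls in all NT against in vivo comparisons became 6 without in vivo 4-cell replicate 1 or 2.

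**Figure D3:**
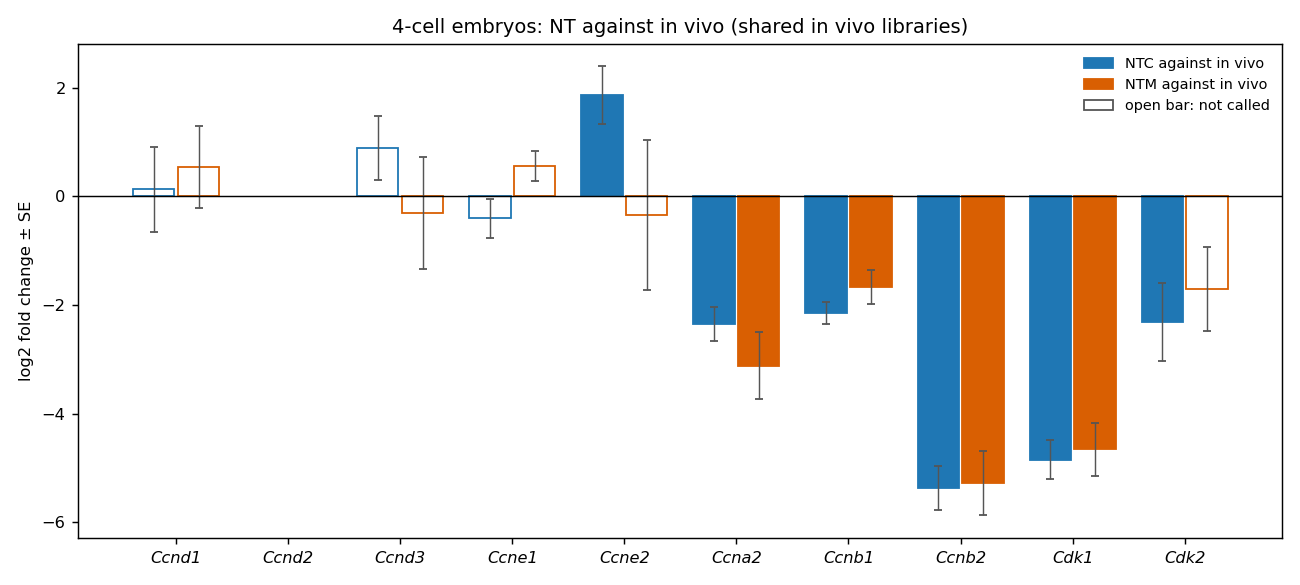
Log2 difference of each member between NT and in vivo 4-cell embryos, for NTC and NTM, with SE as error bars and open bars for differences that were not called. Cdk1 and Ccnb2 lie between -4.66 and -5.37 in both, and Ccnd2 was under the expression limit.

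At the other 5 stages no member passed the test between NT and in vivo embryos by limma. The shares of all genes called were 1.16% and 1.28% at the 1-cell stage (NTC and NTM), 0.152% and 0.141% at the 2-cell stage, 1.46% and 2.02% at the 8-cell stage, 0.0321% and 0.168% in morulae and 9.46% and 0.746% in blastulas. With an unadjusted p under 0.05 there were 1, 3, 3, 0 and 1 members in NTC and 2, 2, 2, 1 and 2 in NTM embryos over these stages. The closest to a call was Ccnd3 in NTC blastulas, which is described with the D-type cyclins.

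The NT types were also compared with each other. At the 1-cell stage NTM embryos had 14.1, 6.81 and 12.9 RPKM of Ccnb2 and NTC embryos 3.14, 3.58 and 3.59 RPKM, so that the groups did not overlap. The difference was 1.41 log2 units (SE 0.33, limma adjusted p = 0.0174), in a comparison where 19.8% of all genes were called, 5.64% as higher in NTM. It was lost without any one of the libraries other than NTM replicate 2 (adjusted p up to 0.0626), and in 1 fit over all 20 groups (adjusted p = 0.128). The oocyte markers summed to 3380 to 3741 RPKM in NTM and 2361 to 2753 RPKM in NTC 1-cell embryos, and their part in this was not tested. Ccnb1 was also higher in all 3 NTM 1-cell embryos, by 0.79 (SE 0.12, limma adjusted p = 0.00284), which is under the fold limit. At the 4-cell stage none of 10233 genes passed between the NT types in limma (0.0%), and 1 member had an unadjusted p under 0.05. No member was called at the 2-cell, 8-cell, morula or blastula stage either, with 2, 2, 2 and 0 members at an unadjusted p under 0.05 and 0.0%, 0.0507%, 0.0% and 0.0% of all genes called.

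Ccne1, on chromosome 7 (38097984 to 38107534, minus strand), encodes cyclin E1, which brings Cdk2 to the start of DNA replication. It was low in all 1-cell embryos, with 0.180, 6.37 and 1.35 RPKM in vivo, 2.60, 1.67 and 2.57 RPKM in NTC and 1.78, 3.20 and 6.21 RPKM in NTM. At the 4-cell stage it was 141, 128 and 177 RPKM in vivo, 89.9, 77.5 and 196 RPKM in NTC and 199, 243 and 214 RPKM in NTM embryos. All 3 NTM values were above the in vivo ones, whereas NTC replicates 1 and 2 were below them and replicate 3 above. Neither difference from in vivo was called (-0.41 log2 units for NTC and 0.56 for NTM). The NTM 4-cell mean of 219 ± 22.4 RPKM (SD, n = 3) was the highest of the 20 groups and did not overlap that of in vivo 4-cell embryos, 149 ± 25.3 RPKM (SD, n = 3).

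At the 2-cell stage Ccne1 varied more between libraries. In vivo 2-cell embryos had 4.18, 2.46 and 29.9 RPKM, NTC embryos 34.9, 38.4 and 51.9 RPKM and NTM embryos 42.8, 11.7 and 1.03 RPKM. All 3 NTC values were thus above the in vivo ones, while NTM libraries spread over the whole range. In vivo Ccne1 rose from the 2-cell to the 4-cell stage by 4.17 log2 units (SE 0.79, limma adjusted p = 0.00362). In NTC embryos it rose by 3.70 from the 1-cell to the 2-cell stage (SE 0.33, limma adjusted p = 0.000529) and by 1.41 in the next step (SE 0.43, adjusted p = 0.0331). The second NTC rise was lost without any 2-cell library or without 4-cell replicate 3 (adjusted p up to 0.0942). This call was also lost without the expression limit, with median-ratio scaling and in 1 fit over all 20 groups (limma adjusted p up to 0.205). In NTM embryos it rose by 4.39 from the 2-cell to the 4-cell stage (SE 1.00, limma adjusted p = 0.0131), which was lost without 2-cell replicate 2 or 4-cell replicate 2 (adjusted p up to 0.0595). The difference in the 2-cell to 4-cell change between NTC and in vivo embryos, -2.76, was not called (limma adjusted p = 0.0738), so a different time of rise was not shown.

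Later, Ccne1 remained at 64.8 to 132 RPKM at the 8-cell stage and 35.0 to 172 RPKM in morulae over all embryo types. In blastulas it was 28.1, 2.37 and 23.7 RPKM in vivo, 15.5, 30.2 and 27.6 RPKM in NTC and 25.7, 19.4 and 17.0 RPKM in NTM. Between morula and blastula the share of genes called was 7.16% in NTC embryos, 2.62% downwards, and Ccne1 fell by 1.91 log2 units (SE 0.38, limma adjusted p = 0.0214) and Cdk1 by 1.78 (SE 0.36, adjusted p = 0.0224). Both calls were lost without NTC blastula replicate 1 or 2 or morula replicate 1, and also without morula replicate 2 for Ccne1 and morula replicate 3 for Cdk1 (adjusted p up to 0.0817 and 0.0818). They were also lost without the expression limit and in 1 fit over all 20 groups (limma adjusted p up to 0.34 and 0.0941). The Cdk1 call was lost with the replicate number as a block too. In NTM and in vivo embryos, where 4.22% and 0.801% of genes were called, no member passed, and 2 and 4 members had an unadjusted p under 0.05 by limma.

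Ccne2, on chromosome 4 (11191351 to 11204779, plus strand), encodes the second E-type cyclin. It was the main E-type transcript at the 1-cell stage, with 74.2, 33.1 and 34.8 RPKM in vivo, 52.0, 39.1 and 55.3 RPKM in NTC and 31.9, 40.6 and 37.7 RPKM in NTM. From the 2-cell to the 4-cell stage in vivo it fell by 1.80 log2 units (SE 0.43, limma adjusted p = 0.0104), from 45.0, 43.4 and 68.6 to 13.4, 22.3 and 9.10 RPKM, and this call was lost in 1 fit over all 20 groups (adjusted p = 0.132). NTC 4-cell embryos still had 24.5, 92.2 and 67.6 RPKM and NTM embryos 0, 63.7 and 24.7 RPKM. NTC was above in vivo in 3 of 3 libraries, by 1.86 log2 units (SE 0.53, limma adjusted p = 0.0296), but the call was lost without any one library except NTC replicate 1 (adjusted p up to 0.122). This call was also lost without the expression limit and in 1 fit over all 20 groups (limma adjusted p up to 0.217). The 3 NTM embryos thus ranged from 0, which allows a level of up to 0.0493 RPKM by counting alone, to 63.7 RPKM.

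The share of Ccne1 in the E-type sum followed from these courses. In vivo it was 0.242% to 16.2% at the 1-cell, 5.36% to 30.3% at the 2-cell and 85.2% to 95.1% at the 4-cell stage. In NTC embryos it was 4.10% to 4.76%, 33.3% to 65.6% and 45.6% to 78.6%, and in NTM embryos 5.28% to 14.1%, 16.2% to 64.0% and 79.2% to 100%. NTC embryos were above the in vivo range at the 2-cell stage and below it at the 4-cell stage. In vivo embryos remained between 79.1% and 100% from the 8-cell to the blastula stage, and NTC blastulas spread from 42.8% to 98.2%.

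**Figure D4:**
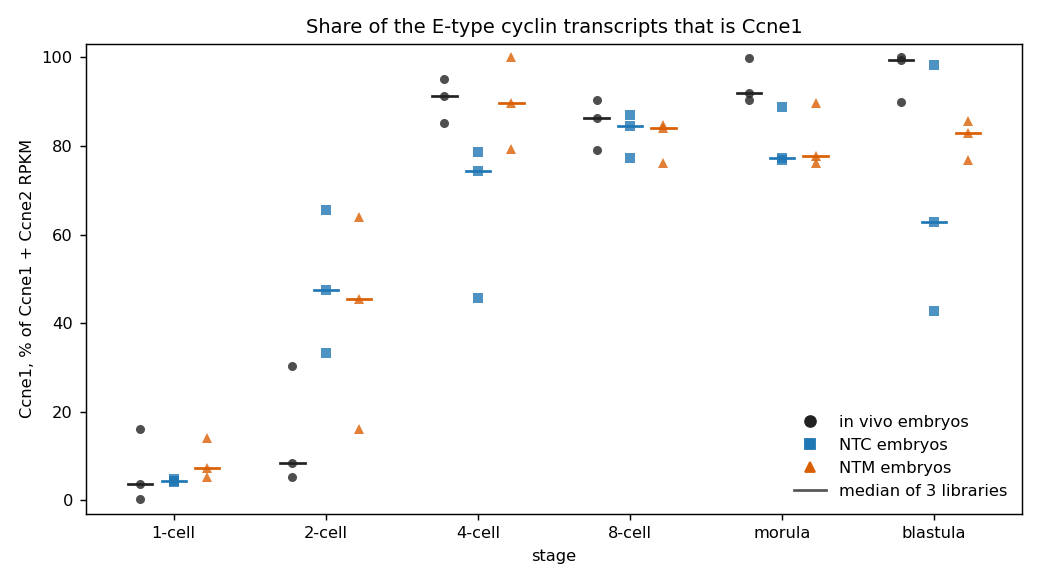
Share of Ccne1 in the summed RPKM of Ccne1 and Ccne2 in percent, by stage, with 1 point per library for the 3 embryo types and a line at the median of each group. In vivo the share stays at or under 30.3% up to the 2-cell stage and is 85.2% or more at the 4-cell stage. The NTC 2-cell libraries lie at 33.3% to 65.6% and the NTM 2-cell libraries at 16.2% to 64.0%.

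D-type cyclins start the cycle in response to growth signals by binding Cdk4 and Cdk6. Ccnd1 and Ccnd2 were scarce in most embryos, while Ccnd3 reached 16.1 RPKM. Ccnd1, on chromosome 7 (144929931 to 144939925, minus strand), was under 1 RPKM in 44 of 54 embryo libraries and at 0 in 14 of them. Ccnd2, on chromosome 6 (127125162 to 127152193, minus strand), was under 1 RPKM in 50 and at 0 in 27. Single libraries departed from this, above all NTM 2-cell replicate 1 with 23.9 RPKM of Ccnd1, beside 0.474 and 0.379 RPKM in the other two. NTC 2-cell replicate 3 had 5.76, NTC 4-cell replicate 3 had 5.47 and NTM 4-cell replicate 1 had 5.56 RPKM of Ccnd1. Fibroblast markers summed to 22.3 RPKM in NTM 4-cell replicate 1, the highest sum of any embryo, but to 0.199 RPKM in NTM 2-cell replicate 1. In NTC 2-cell replicate 3 and NTC 4-cell replicate 3 they summed to 0.0565 and 0.0468 RPKM. Their part in the Ccnd1 values was not tested. Ccnd2 was highest in NTC blastula replicate 3, at 4.63 RPKM, and reached 1.70, 2.06 and 0.631 RPKM in NTC 8-cell embryos.

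Ccnd3, on chromosome 17 (47505051 to 47599691, plus strand), was the main D-type transcript in most embryo groups, with a median of 2.93 RPKM over the 54 embryo libraries. It was under 1 RPKM in all in vivo and NTM 1-cell embryos and 1.01, 1.46 and 1.07 RPKM in NTC 1-cell embryos. Morulae had 4.27, 4.49 and 2.03 RPKM in vivo, 12.8, 5.13 and 8.62 RPKM in NTC and 3.38, 2.11 and 4.09 RPKM in NTM embryos. In blastulas the groups parted, with 0.0798, 0.706 and 0.0198 RPKM in vivo against 4.05, 3.04 and 3.15 RPKM in NTC and 13.6, 6.97 and 2.84 RPKM in NTM embryos. All 6 NT blastulas were above the 3 in vivo ones. The differences were 1.83 log2 units for NTC (limma adjusted p = 0.0538) and 2.63 for NTM (adjusted p = 0.0693), and neither was called. Genes above 0 numbered 7730 to 7808 in in vivo blastulas, against 11771 to 13000 in NTC and 11498 to 13568 in NTM blastulas, and the part of this in the Ccnd3 values was not tested. All 3 D-type cyclins together made up at most 7.52% of the summed RPKM of the 8 cyclins in any embryo.

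**Figure D5:**
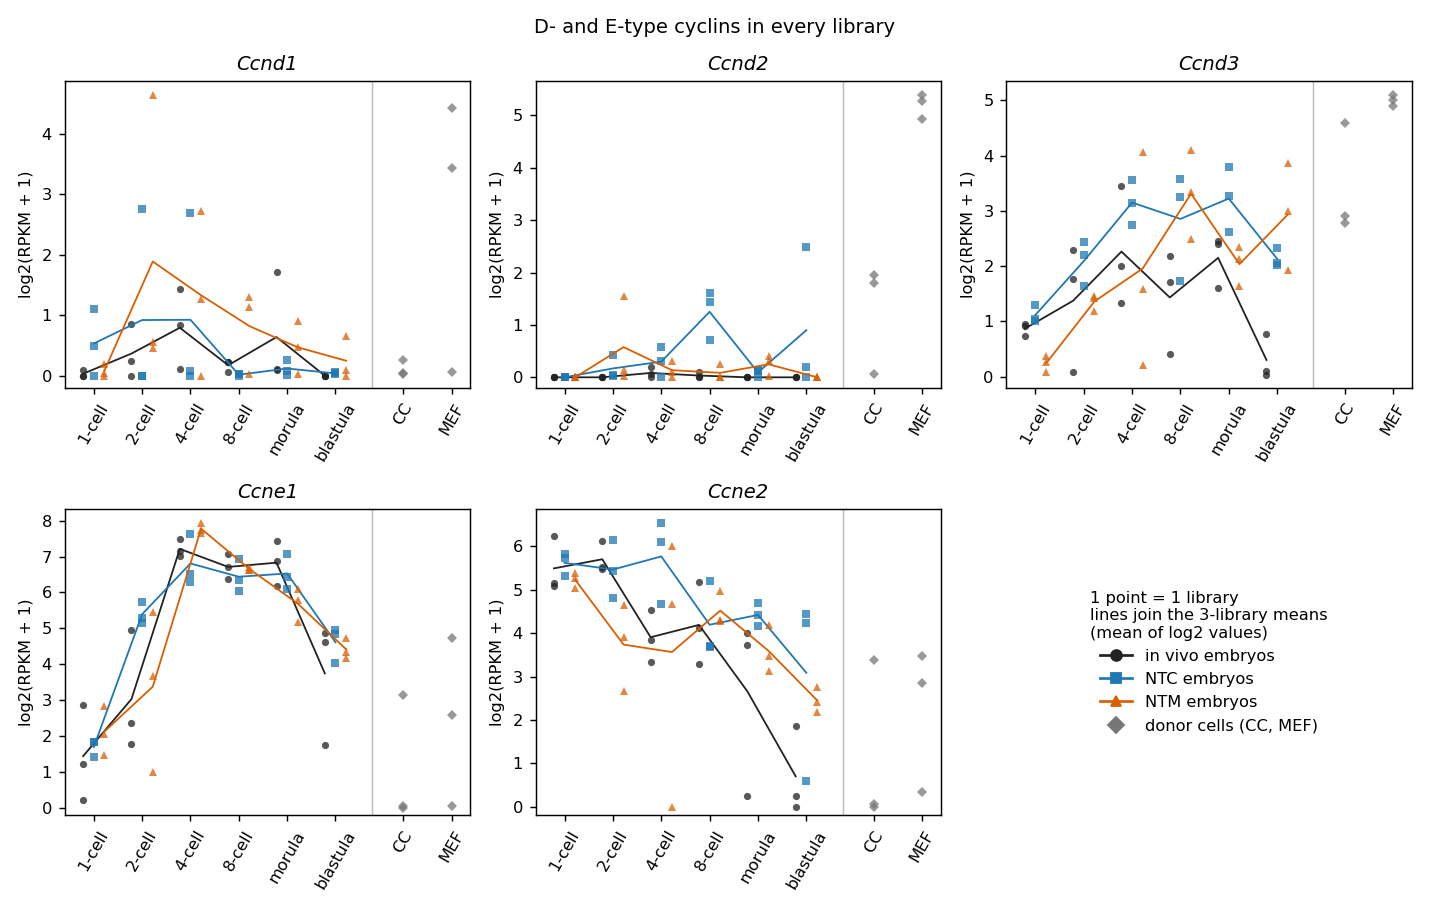
Levels as log2(RPKM + 1) of the E-type and D-type cyclins in the 3 embryo types at the 6 stages and in the donor cells (diamonds), with 1 point per library and lines through the means of the log2 values. Ccne1 climbs from at most 6.37 RPKM at the 1-cell stage to 77.5 RPKM or more at the 4-cell stage in every library, and Ccnd1 and Ccnd2 stay under 1 RPKM in most libraries.

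The make-up of the cyclins in MEFs was unlike that in embryos, while the CC libraries differed among themselves. In MEFs Ccnd2 was at 29.4, 40.8 and 37.7 RPKM and Ccnd3 at 29.0, 31.1 and 33.2 RPKM, and D-type cyclins made up 74.0% to 91.9% of the cyclin sum. Ccnd1 was at 9.73, 20.4 and 0.0491 RPKM, so that 1 MEF library had almost none. In MEFs Ccnb1 was at most 0.883 RPKM, Cdk1 at most 0.654 RPKM and Ccna2 at most 0.0661 RPKM, while Ccnb2 was at 5.19, 0.0175 and 0.855 RPKM. In CCs, Cdk2 was at 85.3, 37.6 and 21.1 RPKM and Ccnd3 at 6.47, 23.0 and 5.88 RPKM, while Ccnb1 was at 89.1, 0.645 and 0.781 RPKM. CC replicate 1 stood apart in Ccnb1, and it also had the highest CC values of Ccna2 (3.22 RPKM), Ccnb2 (6.01 RPKM) and Cdk1 (3.78 RPKM). D-type cyclins made up 6.22%, 97.4% and 31.3% of the cyclin sum in the 3 CC libraries, and Ccnb1 84.9% in replicate 1. Ccne1 and Ccne2 were at 7.94 and 9.43 RPKM in CC replicate 3 and near 0 in the other CC libraries. The oocyte markers summed to 2.97 to 3.77 RPKM over the 3 CC libraries. Between CCs and MEFs, where 6.29% of genes were called, 3.99% as lower in CCs, Ccnd2 was the one member called, at -3.93 log2 units (SE 0.69, limma adjusted p = 0.0107), with 0.0427, 2.46 and 2.88 RPKM in CCs. The call was lost without any one MEF library (adjusted p up to 0.0799).

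NT 1-cell embryos differed from their donor cells in 4 members (NTC) and 7 members (NTM). Against CCs, where 50% of genes were called, 29.3% as higher in the embryos and 20.8% as lower, NTC 1-cell embryos had more Ccnb1 (6.39 log2 units), Ccne2 (4.48) and Ccna2 (3.48) and less Ccnd3 (-2.30). Against MEFs, where 55.2% were called, 25.2% as higher and 29.9% as lower, NTM 1-cell embryos had more Ccnb1 (9.33), Ccna2 (4.84), Ccne2 (3.01), Ccnb2 (2.37) and Cdk1 (1.57) and less Ccnd2 (-5.20) and Ccnd3 (-4.76). Ccnd2 was at 0 in all 3 NTM and all 3 NTC 1-cell embryos. Of these calls, those of Ccnb1 and Ccnd3 against CCs and of Ccne2 against MEFs were lost without any one of the 3 NT 1-cell libraries (adjusted p up to 0.0726, 0.0603 and 0.0658). That of Ccne2 against CCs was lost without NTC replicate 3 (adjusted p = 0.0508), and that of Ccnb2 against MEFs without MEF replicate 2 or 3 or NTM replicate 1 or 3 (adjusted p up to 0.0923).

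Between blastulas and donor cells 1 member (NTC) and 4 members (NTM) were called. NTC blastulas had more Ccne1 than CCs (3.54 log2 units, limma adjusted p up to 0.121 without 1 library, lost without any one except CC replicate 3), in a comparison with 24.2% of genes called, 9.92% as higher. NTM blastulas had more Ccnb1 (6.52) and Ccna2 (2.80) than MEFs and less Ccnd2 (-5.19) and Ccnd3 (-2.07), with 30.8% called, 11% as higher and 19.8% as lower. The Ccnd3 call was lost without any one MEF library or NTM blastula replicate 2 (adjusted p up to 0.0661). Over all comparisons, 38 of 62 member calls held without any 1 library, and 35 of 62 also held in every other alternative run.

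The regulators around the cyclins and kinases were followed as a list of 58 genes, of which 57 were in the table. From the 2-cell to the 4-cell stage in vivo, 19 of 50 tested rose and 13 fell, where 31.4% and 20.8% of all genes did. The median was 0.49, beside 0.36 over all genes. The largest rises were those of Cks2, a small subunit of the Cdk complex (7.09 log2 units), Cdk4, the partner of D-type cyclins (5.56), the mitotic kinase Plk1 (5.25), the Cdk inhibitor Cdkn1a (4.96) and Ccnh, a subunit of the kinase that activates Cdks (4.68). The largest falls were those of Wee2, the oocyte kinase that holds back Cdk1 (-7.11), E2f5 (-6.77), Fbxo43, the meiotic inhibitor of cyclin destruction (-5.97), Ccno (-4.46) and Rb1 (-4.06).

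Wee2, Fbxo43 and E2f5 fell and Cdk4 rose in both NT types as well. In NTC embryos 6 of 51 genes rose and 14 fell over this step (16.4% and 20.1% of all genes), with Wee2 at -6.60, Fbxo43 at -6.12 and E2f5 at -5.65, and Cdk4 rose by 3.64. In NTM embryos 7 of 52 rose and 7 fell (12.1% and 14.3% of all genes), with Wee2 at -7.18, Fbxo43 at -5.72 and E2f5 at -4.48, and Cdk4 rose by 4.37. At the 4-cell stage Cks2 was at 2685, 2471 and 3058 RPKM in vivo, at 13.9, 3.29 and 14.4 RPKM in NTC and at 22.3, 29.9 and 14.1 RPKM in NTM embryos. Plk1 was at 106, 200 and 185 RPKM in vivo, at 2.53, 2.92 and 2.39 RPKM in NTC and at 1.72, 0.140 and 26.5 RPKM in NTM embryos. The NT libraries lay below the in vivo libraries for both genes.

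Against in vivo 4-cell embryos, 10 of 49 tested list genes were lower and 2 higher in each NT type. Over all genes 20.4% were lower and 7.4% higher in NTC and 17.8% lower and 3.33% higher in NTM embryos, so that the counts were near the share over all genes. The median of the list was -0.31 for NTC and -0.50 for NTM, beside -0.39 and -0.69 over all genes, so that the list as a whole did not stand below the genes in general. Of the 6 Cdk-binding and activating genes 3 were lower in NTC and 4 in NTM embryos, and of the 4 mitotic kinases 2 were lower in each. None of the E2F factors, the retinoblastoma family, the inhibitory kinases or the activators of G2/M genes was called lower in either type. Cks2 differed by -8.10 and -6.94 log2 units (NTC and NTM), Plk1 by -5.46 and -5.17, Ccnh by -4.86 and -4.81, Cdc25b, a phosphatase that activates Cdk1, by -3.30 and -3.20, and the mitotic kinase Aurka by -2.86 and -4.41. The higher genes were Ccng1 in both (3.28 and 4.65), E2f4 in NTC (1.84) and E2f5 in NTM embryos (2.18). Ccng1, an atypical cyclin induced by p53, was at 8.08, 11.9 and 2.16 RPKM in vivo, at 32.3, 106 and 94.8 RPKM in NTC and at 370, 121 and 130 RPKM in NTM 4-cell embryos.

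From the 4-cell to the 8-cell stage in vivo 22 of 46 list genes fell and none rose, in a step where 39.3% of all genes fell and 4.4% rose. The median of the list was -1.06, beside -1.05 over all genes, so that the list as a whole did not stand below the genes in general. The largest falls were those of Plk1 (-6.53), Cks2 (-6.39), Ccnf (-4.13), Cdkn1a (-4.07) and Ccnh (-4.00). At the 8-cell stage Ccng1 again exceeded the in vivo level, by 3.46 in NTC and 3.70 in NTM embryos. Cdkn1a was also higher in NTC (3.10) and E2f5 lower in NTM embryos (-2.49). These were 2 of 44 tested list genes in NTC and 2 of 43 in NTM, where 1.46% and 2.02% of all genes were called. In NTM 1-cell embryos E2f4 (-3.77) and Pkmyt1 (-2.80) were lower than in vivo, 2 of 47 tested list genes, with 1.28% of all genes called. In NTC blastulas Ccng1 (5.39), E2f6 (4.04), Wee1 (4.01), Cdkn1a (3.66) and Cdkn2c (2.67) were higher than in vivo, and in NTM blastulas Wee1 (4.23). These were 5 of 43 tested list genes in NTC and 1 of 43 in NTM, where 9.46% and 0.746% of all genes were called. The median of the list was 0.83 and 0.91, beside 0.85 and 0.86 over all genes. The part of the lower number of genes above 0 in in vivo blastulas was not tested. Wee1, which holds back Cdk1, was at 0.0656, 0.0602 and 0 RPKM in in vivo blastulas, at 12.8, 20.4 and 15.1 RPKM in NTC and at 17.1, 21.5 and 17.1 RPKM in NTM blastulas. No member itself was called in blastulas.

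The genes whose group means were most like those of each member over the 18 embryo groups were listed as a description, by Pearson's r of log2(RPKM + 1) among 12595 genes. The points share libraries, and for the mitotic members r leans on the in vivo 4-cell group. For Cdk1 they were Bcat1 (r = 0.972), Supt4a (0.962) and Gm15443 (0.949), for Ccnb2 Exosc8 (0.967), Pcna (0.964) and Snrpb2 (0.957), and for Ccna2 Mms22l (0.957), Usp37 (0.934) and Med4 (0.910). For Cdk2 they were Hcfc1 (0.862), Tsr1 (0.862) and Racgap1 (0.838), and for Ccnb1 Pcgf1 (0.917), Elobl (0.917) and Trp53bp1 (0.908). For Ccne1 they were Cdk2ap1 (0.968), Gcsh (0.967) and Cbwd1 (0.957), for Ccne2 Pcgf6 (0.919), Naa35 (0.898) and Gpbp1 (0.895), and for Ccnd3 Sesn1 (0.907), Atg13 (0.889) and Fam57b (0.888). Ccnd1 had its highest r, 0.777, with Gm4858, and Ccnd2 was under the expression limit. Among the members themselves r was 0.64 for Ccna2 with Cdk1, 0.51 for Ccnb2 with Cdk1, 0.62 for Ccnb1 with Ccnb2 and 0.70 for Ccnd3 with Ccne1. Other pairs were unlike or opposed, with r of 0.07 for Ccnb1 with Cdk1, -0.22 for Ccne1 with Ccne2 and -0.52 for Ccnb1 with Ccnd3. The members thus did not vary together as a set.

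Reads of some members cannot be told from those of other genes where the counting did not use strand. Exons on the opposite strand overlap Ccna2 over 510 bases (Exosc9), Ccnd1 over 1100 bases (LTO1), Ccnd2 over 372 bases (Gm43126, which has no row in the table) and 368 bases (9330179D12Rik), Ccne2 over 609 bases (Ints8), Ccnd3 over 361 bases (Bysl) and Cdk2 over 34 bases (Pmel). A processed copy of Ccnd3 was at most 4.21 RPKM. The values of Ccnd3 in embryos ranged from 0.0198 to 16.1 RPKM with a median of 2.93 RPKM. Most were thus below this limit, and their uncertainty is the greater for it.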

How the data were processed

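The values are RPKM as the authors deposited them, reads scaled to exon length and library, for 27238 genes in 60 libraries. Single embryos or donor cells were lysed, cDNA was tailed and amplified over 18 to 20 cycles without molecular identifiers, and 150-bp paired reads were aligned with TopHat 2.0.12 and Bowtie2 2.2.3 and counted with HTSeq 0.6.0. The submitters' processing notes also name Bowtie 0.12.2 and build mm8. Losses before amplification are unmeasured, and reads amplified from 1 molecule count more than once. Low values of Ccna2, Ccnb1, Ccnd2, Ccnd3, Ccne1 and Ccne2 are multiples of 1 read, within 0.05, given their exon length in GENCODE M21 (GRCm38). Those of Ccnb2, Ccnd1, Cdk1 and Cdk2 mostly were not. The reads of the members were therefore recovered with the smallest length at which nearly all low values were whole reads. For Ccnb2, Ccnd1, Cdk1 and Cdk2 it was 1541, 3834, 3445 and 2432 bases. GENCODE M21 gives 1531, 4709, 4934 and 6219 bases for them. Gene positions are those of GENCODE M21. The strand setting of the counting is not given in the sources used here. Groups come from the labels, with 3 libraries each. All columns were used.

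Genes with a mean of at least 0.5 RPKM in the libraries compared were tested on log2(RPKM + 1) with limma 3.58.1 (lmFit and eBayes with an intensity trend) in R 4.3.3, in 38 comparisons of 2 groups and 10 interaction contrasts, and p-values were adjusted over all genes tested. The tests were tried on simulated data in which few genes were changed. Changes of 2 log2 units were called in 33.3% (NTC against in vivo, 4-cell), 10.6% (in vivo 2-cell to 4-cell) and 4.76% (NTM against in vivo, blastula). Changes of 3 log2 units were called in 52.7%, 46.2% and 26.3%. In the data, 27.8% and 52.2% of genes were called in the first 2 of these comparisons, so the simulated rates need not hold there. A member that was not called may still differ. Tables were made in Python 3.11.15 with pandas 2.3.3, numpy 2.4.6 and scipy 1.17.1, and figures with matplotlib 3.10.9. Alternatives were a pseudocount of 0.1, no expression limit, median-ratio scaling, leaving out each library, no fold limit, the replicate number as a block, 1 fit of all 20 groups together and, chosen after seeing the data, RPKM over reads outside the mitochondrial genome. The members and lists were chosen with earlier results of these data known. All 10 members are named. Of the list of 58 regulators, the genes named are called genes, at most 5 per direction with the largest changes in a comparison. For likeness, the 3 genes with the highest r are named. RefSeq promoters were found for 6 of the 10 members. No proteins were compared.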

Additional observations from a re-analysis of the deposited data

Results flagged for a closer look

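In 15 cases the change of a member between stages differed between an NT type and in vivo embryos by a test of the difference itself, given here as NT minus in vivo in log2 units with adjusted p from limma. From the 2-cell to the 4-cell stage the NTC values were -4.59 for Ccnb2 (adjusted p = 0.000375), -4.58 for Cdk1 (0.000633), -4.03 for Cdk2 (0.0175) and -2.54 for Ccna2 (0.00757). The NTM values were -5.32 for Cdk1 (0.00808), -3.96 for Ccnb2 (0.0102) and -2.97 for Ccna2 (0.0456). From the 4-cell to the 8-cell stage the NTC values were 4.89 for Cdk1 (0.000397), 4.52 for Ccnb2 (0.000484), 4.30 for Cdk2 (0.00513), 3.23 for Ccna2 (0.00162) and 1.34 for Ccnb1 (0.0270). The NTM values were 5.23 for Cdk1 (0.000404), 4.43 for Ccnb2 (0.00197) and 3.97 for Ccna2 (0.00362). All 15 use the 3 in vivo 4-cell libraries, so they are not 15 separate observations.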

How the results depend on the processing

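Each library is 1 embryo, groups hold 3 libraries, and RPKM values are relative to the reads of the library, so a level per embryo was not measured. Values near 0 are limited by depth, and NT levels of Ccnb2 at the 4-cell stage rest on 8 to 99 reads. Over the stage steps 19 member calls were made, and without the expression limit there were 12. Between NTM and NTC there was 1 call, with 0 in 1 fit over all 20 groups and 2 without the fold limit. Between CCs and MEFs there was 1 call, with 0 at a pseudocount of 0.1 and 3 in 1 fit over all 20 groups. The listed regulators had 36 calls between NT and in vivo embryos, and 23 without the expression limit. The causes were not tested. Without 1 library, the counts ranged from 16 to 20 (steps), 6 to 11 (NT against in vivo), 0 to 1 (NTM against NTC), 0 to 1 (CCs against MEFs), 13 to 20 (NT against donor) and 12 to 18 (interactions), and for the regulators from 90 to 110 (steps) and 29 to 50 (NT against in vivo). With a pseudocount of 0.1 the interaction calls of Cdk1 and Ccnb2 in NTM embryos (2-cell to 4-cell) were lost (adjusted p = 0.0540 and 0.125). No called member changed direction in any alternative run. Replicate numbers did not pair the libraries: in 0 of 38 comparisons were all 3 correlations of same-numbered libraries above 0.1. With the replicate number as a block the counts were 15 (steps), 10 (NT against in vivo), 1 (NTM against NTC), 1 (CCs against MEFs), 19 (NT against donor) and 15 (interactions), and 99 and 31 for the regulators.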
